A study of Mus musculus with 59 samples.

Results

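The alpha and theta glutathione transferases described here are Gsta2, Gsta3 and Gsta4 of the alpha class and Gstt1, Gstt2 and Gstt3 of the theta class. They are 6 of the 18193 genes that probe sets with a single platform gene symbol represent on the array. Each gene is given by its probe set with that symbol alone and, where there was more than 1, by the one with the highest mean over all 59 arrays. Only Gsta3 had a second such probe set. A further probe set is assigned to Gm3776, Gsta2 and Gsta1 together, which are near-identical copies, and is called the shared probe set.

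Liver RNA of male C57BL/6 mice, 6 weeks old and given 2 weeks to get used to their diet, was hybridised to 1 array per sample. In 8 groups the mice ate AIN-76A, a diet of purified ingredients, or LRD-5001, a grain-based rodent chow, for 5 weeks with no added sodium arsenite (control), with 10 ppb or 100 ppb in drinking water, or with 10 ppb in food. In the other 4 groups, mice on AIN-76A received saline, dexamethasone, sodium arsenite or both agents in the peritoneum, each agent at 1 mg/kg, and livers were taken 8 hours later. Each group had 5 arrays, except 4 for 100 ppb in water on AIN-76A, and a group's arrays are biological replicates by their labels. All values are log2 expression values as deposited, and a difference of 1 is a doubling on this scale. Because a liver sample holds many cells, fewer cells of a type and less RNA per cell cannot be told apart.

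Glutathione transferases join glutathione to reactive, electron-poor compounds, which makes these soluble and ready for export from the cell. In the liver they act on plant compounds, drugs and the aldehydes that arise when membrane lipids are oxidised. The conjugates leave hepatocytes through membrane pumps and are trimmed to mercapturic acids, which appear in urine. Many of these genes are known to respond to the transcription factor Nrf2, which binds antioxidant response elements, and to the nuclear receptors of foreign compounds CAR (Nr1i3) and PXR (Nr1i2).

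The genes lie on 3 chromosomes, with coordinates from RefSeq on GRCm38.p6. Gsta4 lies at chr9:78191966-78209349 and Gsta2 at chr9:78331018-78347192, with Gsta1 between them, and Gsta3 lies apart at chr1:21240565-21265575. The theta genes are neighbours on chromosome 10, with Gstt3 at chr10:75774117-75781422, Gstt1 at chr10:75783813-75798584 and Gstt2 at chr10:75831842-75837419, and Gstt4 stands between Gstt1 and Gstt2. Adjacent to Gstt3 lies Ddt, which encodes D-dopachrome tautomerase, at chr10:75771233-75773374. The table of RefSeq promoters had entries for 4 of the 6 genes, Gsta2, Gsta3, Gstt1 and Gstt3, and not for Gsta4 and Gstt2.

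For Gsta2, Gsta3 and Gstt3, the bases before the start that lie outside the annotated gene are printed. They were chosen because Gsta2 had the highest diet difference and Gsta3 was the brightest. Gstt3 had the largest difference of the 6 from saline after dexamethasone, which was not called. Gsta2 is given on the minus strand at chr9:78347193-78347395, Gsta3 on the plus strand at chr1:21240335-21240564 and Gstt3 on the minus strand at chr10:75781423-75781672. Capitals mark matches to the motifs searched.
Gsta2: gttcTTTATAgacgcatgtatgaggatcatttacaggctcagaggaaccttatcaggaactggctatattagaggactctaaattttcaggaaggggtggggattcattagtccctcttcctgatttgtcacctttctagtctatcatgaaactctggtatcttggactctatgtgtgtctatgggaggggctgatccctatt
Gsta3: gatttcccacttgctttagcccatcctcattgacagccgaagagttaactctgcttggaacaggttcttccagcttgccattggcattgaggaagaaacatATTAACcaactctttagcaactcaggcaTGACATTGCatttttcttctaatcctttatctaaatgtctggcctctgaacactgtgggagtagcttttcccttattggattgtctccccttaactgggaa
Gstt3: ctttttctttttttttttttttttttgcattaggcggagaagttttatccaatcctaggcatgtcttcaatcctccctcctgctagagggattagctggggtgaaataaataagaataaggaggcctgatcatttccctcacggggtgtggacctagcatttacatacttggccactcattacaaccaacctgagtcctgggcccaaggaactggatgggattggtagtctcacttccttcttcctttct
Searched on both strands in the 250 bases before each start were TGACNNNGC (antioxidant response element core), GCGTG (xenobiotic response element core), TTGCGCAA (C/EBP palindrome), AGAACA (glucocorticoid receptor core), GTTAAT (HNF1 core), TATAAA (core promoter box) and the repeats of AGGTCA spaced by 4 bases or by 1. Gsta3 held the antioxidant response element core, 121 bases before its start on the plus strand, as did 10.2% of 32851 promoter windows of the same length. Gsta3 also held the HNF1 core, 149 bases before its start on the opposite strand, found in 6.43% of windows. Gsta2 held TATAAA on the opposite strand, 246 bases before its start (12.4% of windows), and GCGTG 7 bases before its start, in the stretch not printed (28.2% of windows). The windows of Gstt1 and Gstt3 held none of the motifs. The windows of Gsta2 and its neighbour Gsta1 aligned over 168 columns, of which 141 (83.9%) were identical.

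The 6 probe sets differed in brightness, which ranks probe sets on these arrays and does not compare the amounts of different transcripts. Mean values over all arrays were 11.46 for Gsta3, 10.03 for Gstt1, 6.95 for Gstt2, 6.42 for Gsta4, 5.79 for Gsta2 and 4.98 for Gstt3, while the array medians lay between 2.42 and 2.59. Hepatocyte markers had mean levels between 12.36 and 12.71 on every array. The array with the lowest score of each group was marked on a principal component of within-group deviations, which held 27.4% of the variance. These 12 low-score arrays, 1 per group, also had the 12 lowest scores of all arrays. Their upper quartile differed by -0.27 from that of their group mates, averaged over groups. On the same measure the 6 genes differed by -0.28 for Gsta2 to 0.38 for Gstt1, with the others between. Gsta2 was lower on the low-score array in 8 of 12 groups, and Gstt1 in 1 of 12. The cause of this pattern was not tested. Counts of members called without these arrays are given in the closing section where they changed.

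**Figure D1:**
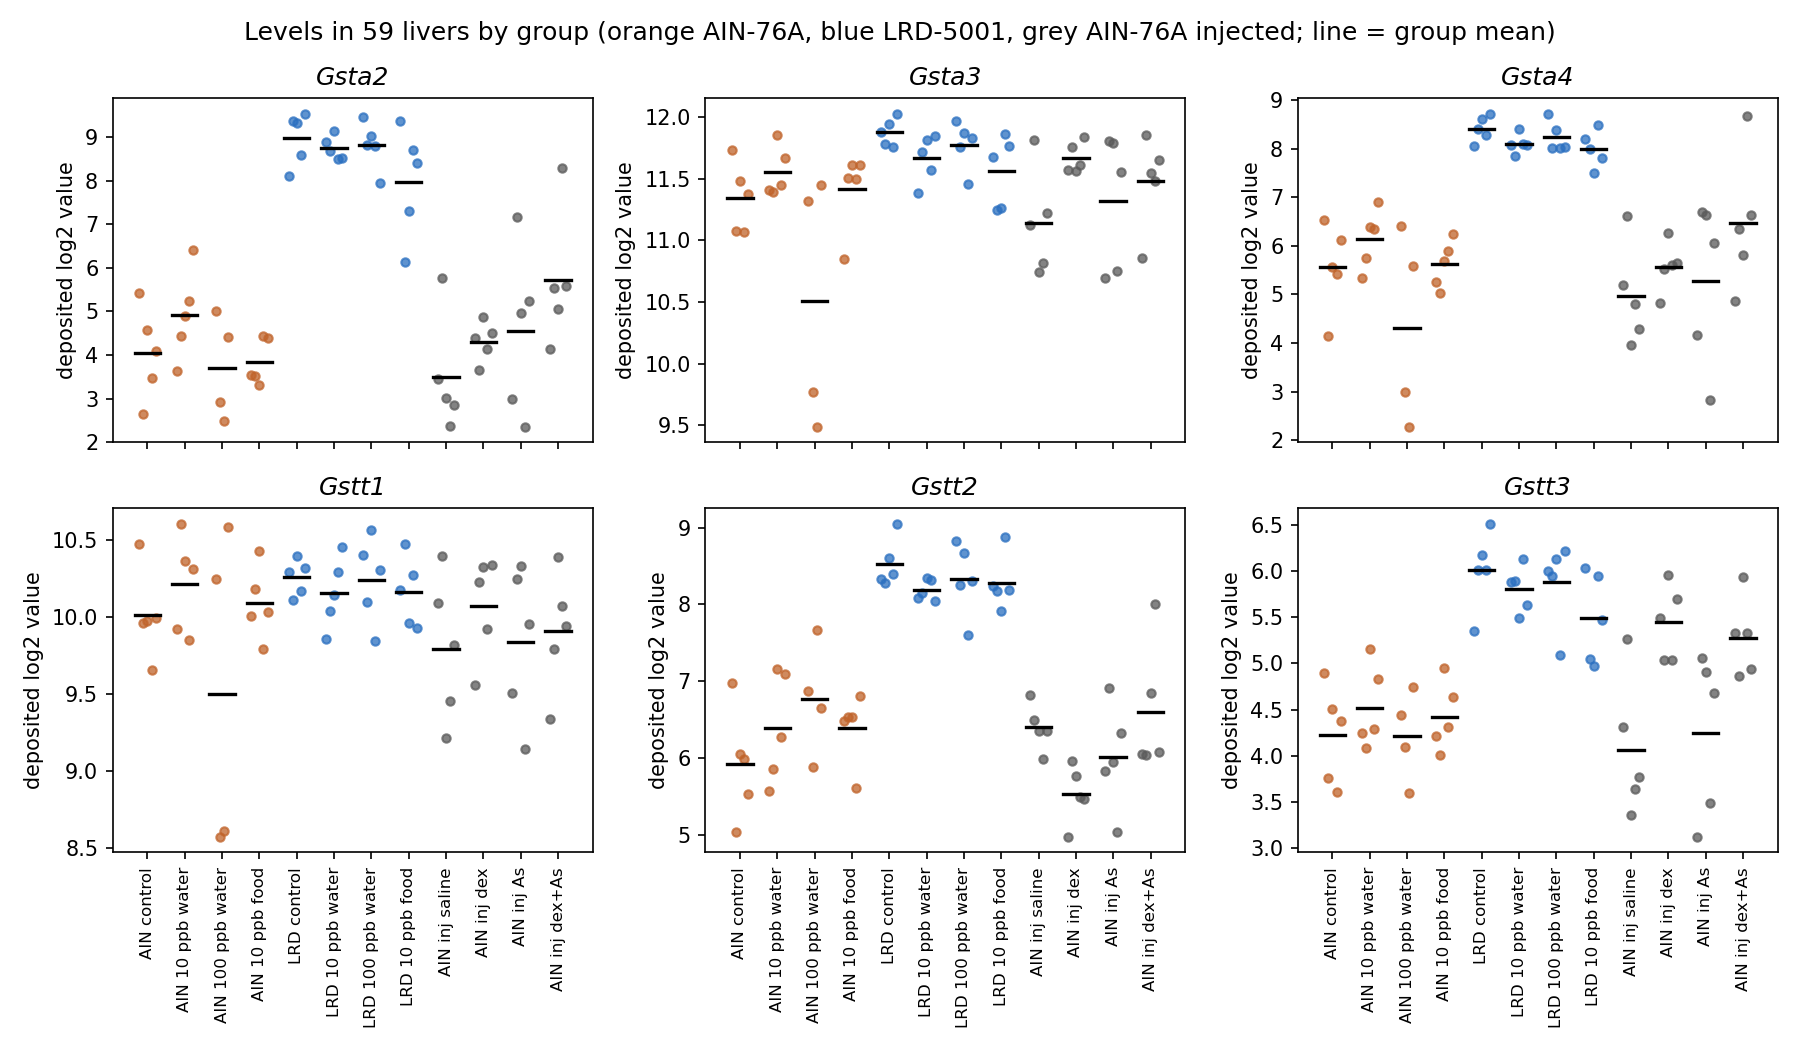
Deposited log2 values (vertical axis) of the 6 genes in 59 livers, by group (horizontal axis); each point is 1 array and each line a group mean, in orange for AIN-76A, blue for LRD-5001 and grey for the injected groups on AIN-76A. Gsta2, Gsta4, Gstt2 and, by a narrow margin, Gstt3 have all 4 LRD-5001 group means above all 8 AIN-76A group means. For Gsta3 and Gstt1 the 2 lowest arrays belong to the group at 100 ppb in water on AIN-76A.

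LRD-5001 gave higher Gsta2, Gsta4, Gstt2 and Gstt3 than AIN-76A did, while the 2 brightest members, Gsta3 and Gstt1, did not pass the test in control mice. In control mice, 4 of the 6 genes were called higher and 0 lower by limma at an adjusted p under 0.05 (Benjamini-Hochberg over 45037 probe sets), where 0.4% of all probe sets were called higher and 0.169% lower. Their arrays did not overlap between the diets for 5 of the 6 genes, as for 1.11% of probe sets. The median difference of the 6 genes was 2.20, against -0.0044 over all probe sets.

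Gsta2, an alpha-class enzyme known to be inducible by foreign compounds, had 8.10, 9.37, 9.31, 8.59 and 9.54 in the 5 control mice on LRD-5001. On AIN-76A the 5 control mice had 5.42, 2.65, 4.58, 3.47 and 4.10. All chow-fed livers lay above all livers on purified diet, which were the more spread out. The difference was 4.94 (SE 0.52, adjusted p = 2.87e-07 by limma), a fold of 30.7. Replicate C on AIN-76A, at 2.65, lay close to its array's median of 2.59, so the fold is set partly against a level near the floor. The shared probe set differed by 4.73 (SE 0.45, adjusted p = 2.62e-08), so its signal moved the same way, but how much of it comes from each copy cannot be told.

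Gsta4, an alpha-class enzyme best known for conjugating hydroxynonenal, an aldehyde from lipid peroxidation, had 8.06, 8.40, 8.61, 8.27 and 8.72 in control mice on LRD-5001. On AIN-76A it had 6.54, 4.16, 5.55, 5.42 and 6.12. The diets did not overlap, and the spread was wider on AIN-76A. The difference was 2.85 (SE 0.47, adjusted p = 0.000585), a fold of 7.22.

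Gstt2, a theta-class enzyme known to act on sulfate esters, had 8.32, 8.28, 8.60, 8.39 and 9.05 in control mice on LRD-5001. The AIN-76A controls had 6.98, 5.03, 6.05, 5.98 and 5.52, all below the chow-fed mice. The difference was 2.62 (SE 0.32, adjusted p = 4.03e-06), a fold of 6.13. Gstt3, the dimmest of the 6 probe sets and also of the theta class, had 5.35, 6.01, 6.18, 6.01 and 6.51 on LRD-5001. It had 4.89, 3.76, 4.51, 3.61 and 4.38 on AIN-76A, again without overlap. The difference was 1.78 (SE 0.27, adjusted p = 0.00017).

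Gsta3, an abundant alpha-class enzyme of mouse liver known for detoxifying aflatoxin, had 11.88, 11.78, 11.94, 11.75 and 12.03 in control mice on LRD-5001. On AIN-76A it had 11.73, 11.08, 11.48, 11.07 and 11.37, just below without overlap. The difference of 0.53 (SE 0.24) did not pass the test (adjusted p = 0.596). Gstt1, a theta-class enzyme known for acting on small halogenated compounds such as dichloromethane, had 10.29, 10.11, 10.39, 10.17 and 10.32 on LRD-5001. It had 10.47, 9.96, 9.97, 9.65 and 9.99 on AIN-76A, where replicate B lay above every chow-fed control. Its difference of 0.25 had a 95% interval from -0.25 to 0.75 (adjusted p = 0.943).

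The same diet comparison was made at each arsenite exposure, with different mice. At 10 ppb in water 3 of the 6 genes were called higher, where 0.173% of probe sets were, at 100 ppb in water 5 of 6, where 1.43% were, and at 10 ppb in food 3 of 6, where 0.127% were. None of the 6 was called lower at any exposure, as 0.171%, 0.624% and 0.169% of probe sets were. The groups did not overlap, with LRD-5001 above, for 4 of the 6 genes at each of these exposures, against 0.893%, 2.6% and 0.706% of probe sets. Only Gsta2 and Gstt2 among the 6 were called at all 4 exposure levels, a pattern that 34 of 45037 probe sets (0.0755%) had.

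Gsta2 differed by 3.83 at 10 ppb in water, by 5.10 at 100 ppb in water and by 4.14 at 10 ppb in food. Gstt2 differed by 1.80, 1.56 and 1.89 at these exposures, and its groups overlapped at 100 ppb in water, where AIN-76A replicate C, at 7.67, lay just above LRD-5001 replicate E, at 7.60. Gsta4 differed by 1.95, 3.91 and 2.37, and the value at 10 ppb in water had an adjusted p of 0.0528 although the groups did not overlap. Gstt3 differed by 1.28, 1.66 and 1.07, and the value at 10 ppb in food had an adjusted p of 0.0843. Single mice decided some of these calls. The call of Gstt3 at 10 ppb in water was lost without AIN-76A replicate A, C or E or LRD-5001 replicate C or E (adjusted p from 0.0501 to 0.0788). Gsta4 passed at 10 ppb in water without AIN-76A replicate F (adjusted p = 0.0362), and Gstt3 passed in food without LRD-5001 replicate D (adjusted p = 0.0496). Other settings moved these calls too. Gsta4 at 10 ppb in water passed with a filter on dim probe sets, a variance trend or the mean of a gene's probe sets. It also passed in a fit of the compared groups alone, and with the replicate letters or the 12 low-score arrays as a block. Gstt3 in food passed with the filter and without the 12 low-score arrays. In 1 fit of all 59 arrays, Gsta4 in food and Gstt3 at 10 ppb in water were not called.

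Gsta3 differed by 0.11 at 10 ppb in water and by 0.15 at 10 ppb in food, neither called (adjusted p = 0.958 and 1). At 100 ppb in water it differed by 1.27 (SE 0.25, adjusted p = 0.00385). That call rested on 2 low arrays of the AIN-76A group described below, without which the difference was 0.39 (adjusted p = 0.314). Gstt1 was called at no exposure. Its value at 100 ppb in water was 0.74 (adjusted p = 0.151), and -0.17 without the same 2 arrays, B and C. Without AIN-76A replicate B alone, Gsta3 and Gstt2 were no longer called at 100 ppb (adjusted p = 0.0526 and 0.0793), and without replicate A or D, Gstt1 was (adjusted p = 0.0266 and 0.00859).

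**Figure D2:**
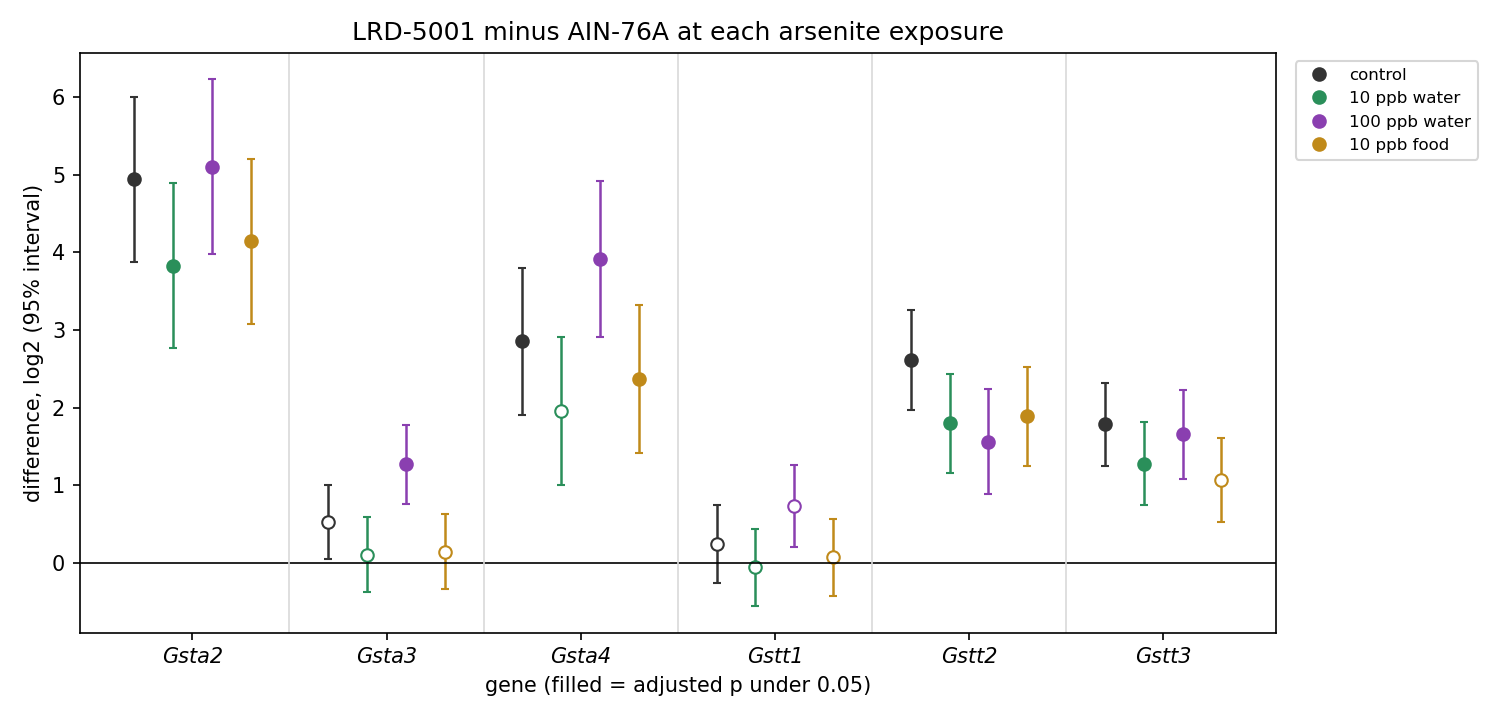
Difference in log2 value, LRD-5001 minus AIN-76A (vertical axis), for each gene (horizontal axis) at 4 arsenite exposures in colour; bars are 95% intervals from limma and filled points have an adjusted p under 0.05. Gsta2 lies between 3.83 and 5.10, and Gstt1 has intervals that include 0 at all exposures except 100 ppb in water.

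Averaged over the 4 exposures, 5 of the 6 genes were called higher on LRD-5001 and 0 lower, where 2.67% of probe sets were called higher and 1.59% lower. Gsta2 had the highest averaged difference of all 45037 probe sets, 4.50 (SE 0.27, adjusted p = 1.44e-14), a fold of 22.6. Here too some AIN-76A values lay near the floor, down to 2.48. Gsta4 had rank 10 on this measure with 2.77 (SE 0.24), Gstt2 differed by 1.97 (SE 0.16) and Gstt3 by 1.45 (SE 0.13). Gsta3 differed by 0.51 (SE 0.12, adjusted p = 0.00624), and its dimmer probe set by 0.97 (SE 0.22, adjusted p = 0.00451). Without the low mice B and C of the 100 ppb group on AIN-76A, the Gsta3 value was 0.29 (adjusted p = 0.0239). Gstt1 differed by 0.25 (SE 0.12) and was not called (adjusted p = 0.357). For Gsta4, all 20 mice on LRD-5001, from 7.50 to 8.72, lay above all 19 exposed or control mice on AIN-76A, from 2.28 to 6.91.

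Other genes of the same chemistry were counted over the averaged diet contrast, from lists of 6 pathways. There, 2.67% of all probe sets were called higher and 1.59% lower. Of 20 other glutathione transferases measured, 8 were called higher and 1 lower, with a median difference of 0.19 against -0.01 over all probe sets. Among those called were the mu-class genes Gstm3 (1.36, adjusted p = 6.54e-08), Gstm4 (0.96) and Gstm1 (0.95), and Gsto1 of the omega class (0.72). The theta-class gene Gstt4, dim at a mean of 2.65, was not called (-0.05, adjusted p = 0.85 by limma). Of the genes that make, recycle and break down glutathione, 5 of 16 were higher and 0 lower, and the median was 0.21. They included Cth, which makes the cysteine that glutathione needs (1.06, adjusted p = 1.51e-09), Gclm, the modifier subunit of the rate-limiting ligase (0.33), and Gss, the glutathione synthetase (0.37). The catalytic subunit gene Gclc was not among those called.

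Further lists hold genes that act on the finished conjugates and on carbonyls and peroxides. Of 11 genes for the mercapturate pathway and conjugate export, 6 were called higher and 0 lower, with a median of 0.35. The export pump gene Abcc3 had the largest value among them, 2.78 (SE 0.16, adjusted p = 1.44e-14), followed by Nat8, which acetylates cysteine conjugates to mercapturic acids (1.21), and the canalicular pump gene Abcc2 differed by 0.56. Of 16 genes for carbonyl and peroxide detoxification, 10 were higher and 0 lower (median 0.31), among them the aldehyde dehydrogenases Aldh1a1 (0.91, adjusted p = 3.49e-08) and Aldh1a7 (0.73).

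Of 20 genes of the Nrf2 list, 5 were higher and 2 lower, with a median of 0.12. The epoxide hydrolase gene Ephx1 (1.56, adjusted p = 3.55e-11), the UDP-glucose dehydrogenase gene Ugdh (1.21) and the aldehyde oxidase gene Aox1 (1.57) were higher. Me1, the malic enzyme that supplies NADPH and also belongs to fat synthesis, was lower (-1.56, adjusted p = 8.16e-07). Of 13 regulators, Nr1i3 (CAR) was higher by 1.11 (adjusted p = 1.17e-05), Nr1i2 (PXR) was higher by 0.59, and Hnf4a was lower (-0.25, adjusted p = 0.0194). The other 10 regulators were not called.

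Some markers of other cells also differed between the diets. In the averaged contrast, 2.67% of all probe sets were called higher and 1.59% lower. There, 3 of 11 Kupffer cell markers were lower (Clec4f, -0.40, C1qa, -0.42, and Cd5l, -0.37). So were 2 of 6 neutrophil markers (S100a9, -1.30, and S100a8, -1.25) and 1 of 4 B cell markers (Ighm, -2.40). In control mice the mean level of the Kupffer cell list ran from 6.07 to 6.26 on LRD-5001 and from 6.21 to 7.32 on AIN-76A. That of the neutrophil list ran from 2.37 to 2.67 and from 2.50 to 3.57. The B cell list did not overlap, with 3.02 to 3.35 and 3.42 to 3.97. The endothelium list overlapped, with 5.09 to 5.50 and 4.93 to 5.43. Lists for stellate cells and fibroblasts, bile duct, T and NK cells, red cells, pancreas and fat overlapped between these diets too. Of markers of hepatocyte zones, 4 of 9 pericentral and 2 of 6 periportal genes were higher and 0 lower. Of 10 general hepatocyte markers 2 were higher and 1 lower. Acute-phase genes, liver genes known to rise with inflammation and chosen after their values were seen, were lower on LRD-5001 too, with differences of -3.34 for Lcn2 (adjusted p = 0.0038), -2.64 for Saa2, -1.73 for Saa1 and -1.09 for Serpina3n (adjusted p = 0.00979). Orm1, also of the acute phase, was not called (-0.38, adjusted p = 0.0934). The part of these shifts in the differences of the glutathione transferases was not tested.

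Across all 12 groups, the widest step in the order of the group means lay between the diets for 3 genes. For Gsta2, all 4 LRD-5001 groups, from 7.98 to 8.98, stood above all 8 AIN-76A groups, from 3.49 to 5.72. The step between them, 2.26, was the only gap between neighbours in the order that exceeded the larger of their SDs. Gsta4 and Gstt2 had the same arrangement, with steps of 1.53 and 1.42. Within each diet, neighbouring groups of these 3 genes did not differ beyond their spread.

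Gstt3 also had all 4 LRD-5001 groups, from 5.49 to 6.01, above every AIN-76A group, but its wide step lay elsewhere. Next came the dexamethasone group on AIN-76A, at 5.44, and the group given dexamethasone with arsenite, at 5.28. The one gap that exceeded the larger SD came after these 2 groups and was 0.76. The remaining 6 groups on AIN-76A had means from 4.07 to 4.52. Gsta3, from 10.51 to 11.88, and Gstt1, from 9.50 to 10.26, had no gap beyond the larger SD, and AIN-76A with 100 ppb in water stood lowest for both.

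The spread from mouse to mouse was also compared by its size. The SD pooled within the 4 exposed or control groups was 1.08 on AIN-76A and 0.29 on LRD-5001 for Gsta4, 0.52 and 0.21 for Gsta3, and 0.54 and 0.22 for Gstt1. For Gsta2 it was 0.97 and 0.77, for Gstt2 0.66 and 0.34, and for Gstt3 0.46 and 0.41. The injected groups, all on AIN-76A, had pooled SDs of 1.42 for Gsta2 and 1.25 for Gsta4. For Gsta3 and Gstt1 the larger SD on AIN-76A came with the group given 100 ppb, and without it the pooled SDs were 0.27 and 0.28. For Gsta4 it was then 0.69. For Gsta2 the widest of the 8 groups was on LRD-5001, at 10 ppb in food (SD 1.28). These SDs were not compared with a test, and leaving that group out was chosen after the data were seen.

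Arsenite for 5 weeks was compared with the control of the same diet. None of the 6 genes was called in any of the 6 comparisons by limma, where the share of all probe sets called in either direction was 0.00888% for 100 ppb in water on AIN-76A and 0.0% for the others. At an unadjusted p under 0.05 there were 3 of the 6 genes for 100 ppb in water on AIN-76A, where 8.87% of probe sets were. There were 0 of 6 at 10 ppb in water and in food on AIN-76A (4.84% and 3.63% of probe sets). There were also 0 of 6 on LRD-5001 at 10 ppb in water, at 100 ppb in water and in food (2.34%, 2.34% and 2.29%).

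On LRD-5001 all differences from control were below 0, with none called. They ran from -0.34 to -0.10 at 10 ppb in water, from -0.20 to -0.02 at 100 ppb in water, and from -1.0 to -0.10 at 10 ppb in food. The largest, for Gsta2 in food (-1.0, SE 0.52), had a 95% interval from -2.07 to 0.06. In that group Gsta2 had 9.36, 6.13, 7.29, 8.71 and 8.40, so replicates C and D lay below all 5 controls and the others lay among them.

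On AIN-76A, 10 ppb in water gave differences from 0.20 to 0.88 and 10 ppb in food from -0.21 to 0.48. The interval for Gsta2 at 10 ppb in water reached from -0.18 to 1.94. Food and water at 10 ppb differed for Gsta2 on AIN-76A by -1.09 (SE 0.52), with an unadjusted p of 0.0447 and an adjusted p of 0.854.

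**Figure D3:**
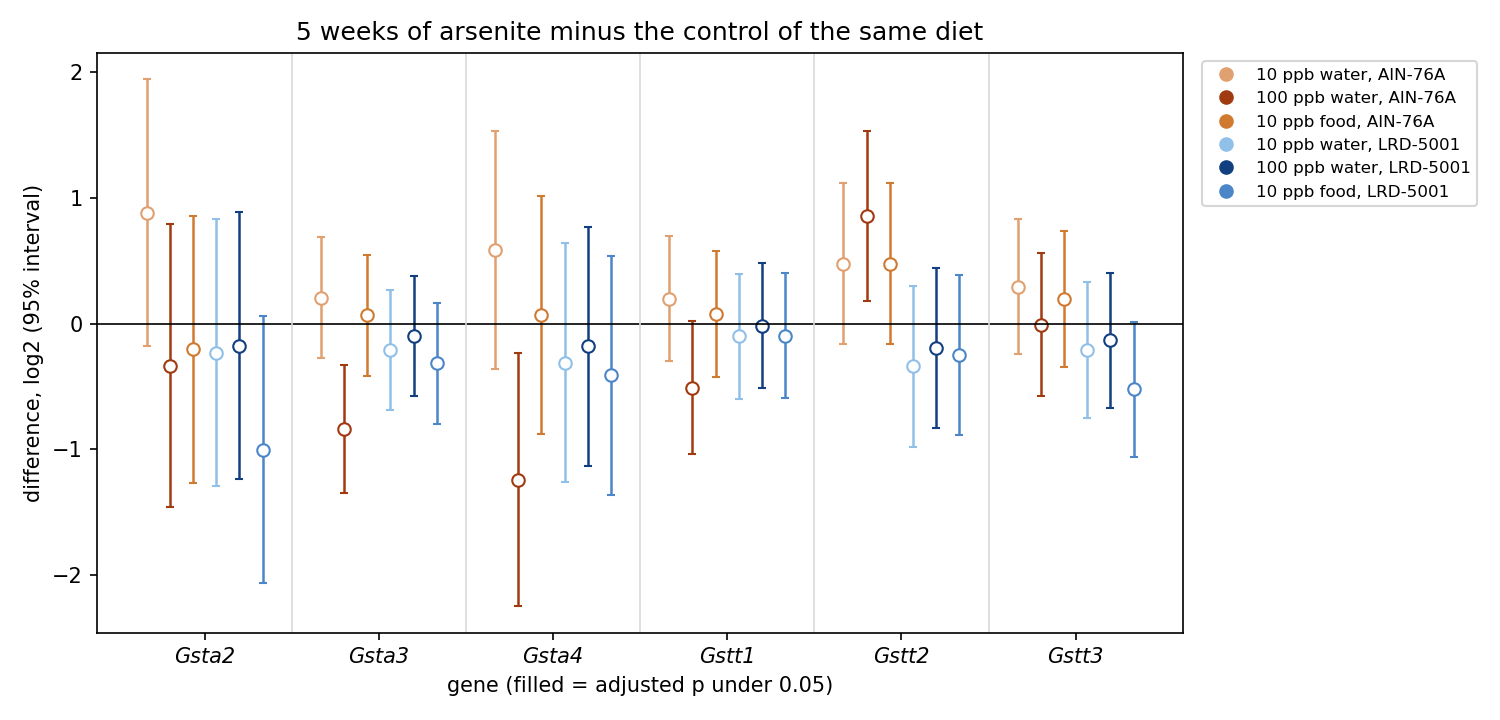
Difference in log2 value from the control of the same diet (vertical axis) for each gene (horizontal axis) after 5 weeks of arsenite, with AIN-76A in orange shades and LRD-5001 in blue shades; bars are 95% intervals from limma and open points were not called. No point is filled, and the lowest value is -1.24, for Gsta4 at 100 ppb in water on AIN-76A.

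On AIN-76A, the mice that drank 100 ppb were uneven. Its 4 mice, replicates A, B, C and D, had 11.32, 9.77, 9.49 and 11.45 for Gsta3. They had 6.40, 3.0, 2.28 and 5.59 for Gsta4, and 10.24, 8.57, 8.61 and 10.58 for Gstt1. Replicates B and C were low for all 3 genes, below every other mouse that was not injected, while A and D lay within the range of the AIN-76A controls or, for Gstt1, just above it in D. For Gsta2 the values were 5.01, 2.92, 2.48 and 4.42, with B and C again lowest. Gstt2 did not follow, with 6.87, 5.88, 7.67 and 6.65, where replicate C was the highest of the 19 mice on AIN-76A that were not injected.

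With all 4 mice, the differences from control were -0.84 for Gsta3 (SE 0.25, adjusted p = 0.22), -1.24 for Gsta4 (SE 0.50, adjusted p = 0.416), -0.51 for Gstt1 and 0.86 for Gstt2 (SE 0.33, adjusted p = 0.4). Without replicates B and C, which was tried after the data were seen, Gsta3 differed by 0.04 and Gsta4 by 0.44. Without replicate A, Gsta3 and Gsta4 were called lower than in controls (adjusted p = 0.0139 and 0.0215), and without replicate D, Gsta3 was (adjusted p = 0.0265). Against the group given 10 ppb in water, 100 ppb gave the single call among the 6 genes, Gsta3 lower by -1.05 (SE 0.25, adjusted p = 0.0351), where 0.713% of probe sets were called in either direction and 0.411% lower. In the 10 ppb group Gsta3 had 11.41, 11.39, 11.85, 11.45 and 11.67, so only B and C of the 100 ppb group lay clearly below. The call was lost without replicate B (adjusted p = 0.271), without replicate C (adjusted p = 0.209), and without replicate A, D, E or F of the 10 ppb group (adjusted p from 0.0534 to 0.1), and without both low mice the difference was -0.17. Without replicate A or D of the 100 ppb group, Gsta4 and Gstt1 were called lower as well (adjusted p from 0.000747 to 0.0417).

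Acute-phase genes were high in these 2 mice, though not in them alone. Serpina3n, an acute-phase protease inhibitor, had 8.64, 12.71, 12.34 and 10.65 in replicates A to D. Lcn2, an iron-binding acute-phase protein, had 6.51, 12.50, 12.42 and 10.03. Replicates B and C were highest for both, with D between them and A. The serum amyloid gene Saa1 had 10.84, 13.57, 13.56 and 13.38, and Saa2 had 8.96, 13.14, 13.33 and 12.69. For these genes replicate D, with Gsta3 at 11.45, was close to B and C, and A alone was low. The array of replicate D is one of the 12 low-score arrays. The neutrophil list had mean levels from 2.54 to 4.43 in this group and from 2.34 to 2.89 in the group given 10 ppb in water. In the comparison of 100 with 10 ppb, 3 of its 6 genes (Ngp, S100a9 and S100a8) were called higher. There, 0.713% of probe sets were called in either direction. The part of these genes in the values of the glutathione transferases was not tested.

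Whether arsenite acted differently on the 2 diets was tested with interaction terms. None of the 6 genes was called in the interaction for 10 ppb in water, 100 ppb in water or 10 ppb in food, as for 0.0% of probe sets in each. At an unadjusted p under 0.05 there were 0, 2 and 0 of the 6 genes, against 4.14%, 6.12% and 2.5% of probe sets. The 2 were Gsta3, with 0.74 (SE 0.34, adjusted p = 0.814), and Gstt2, with -1.05 (SE 0.46, adjusted p = 0.797), both at 100 ppb in water, and Gsta3 changed to -0.14 without the low mice B and C.

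In the injected mice, dexamethasone, a synthetic glucocorticoid, was set against saline at 8 hours. None of the 6 genes was called by limma, where 0.984% of probe sets were called higher and 0.753% lower, and 3 of the 6 had an unadjusted p under 0.05, against 11.2% of probe sets. Gstt3 had 5.49, 5.03, 5.96, 5.04 and 5.70 after dexamethasone. After saline it had 4.31, 5.27, 3.36, 3.64 and 3.77, and only saline replicate B reached into the range of the dexamethasone group. The difference was 1.38 (SE 0.38, adjusted p = 0.0782), and without that saline mouse it was 1.67 and passed the threshold (adjusted p = 0.0176). Saline replicate B was also apart in acute-phase genes. It had 9.93 for Serpina3n, where the other saline mice ran from 11.36 to 12.11, and 8.95 for Saa2, where they ran from 12.70 to 13.29. The part of these genes in the Gstt3 values was not tested.

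For Gstt2 the difference had the opposite sign. After dexamethasone it had 4.97, 5.96, 5.77, 5.49 and 5.47, all below the saline mice, which had 6.82, 6.49, 6.35, 5.98 and 6.35. It was the only member whose groups did not overlap downward, as 1.93% of probe sets did. The difference was -0.87 (SE 0.35, adjusted p = 0.312). So Gstt3 and Gstt2, of the same cluster, had differences of opposite sign in the same livers. Between them on the chromosome, Gstt1 was at 0.28 (adjusted p = 0.774) and the dim Gstt4 at -0.11 (adjusted p = 0.872 by limma). Gsta3 differed by 0.53 (SE 0.24, adjusted p = 0.396), Gsta2 by 0.81 and Gsta4 by 0.60, with no call.

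Arsenite alone differed from saline by -0.39 for Gstt2 to 1.06 for Gsta2, with the other 4 genes between. None was called by limma, as for 0.0% of probe sets, and 0 of 6 had an unadjusted p under 0.05, against 3.14% of probe sets. Mice within this group were far apart: Gsta2 had 2.99, 7.17, 4.97, 2.35 and 5.25, and Gsta4 had 4.16, 6.69, 6.64, 2.83 and 6.06. Replicates A and E were lowest for both genes. The 95% interval for Gsta2 reached from -0.67 to 2.78.

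With dexamethasone and arsenite together, none of the 6 genes was called against saline, where 0.502% of probe sets were called higher and 0.424% lower, and 2 of 6 had an unadjusted p under 0.05, against 9.78% of probe sets. Gstt3 had 5.33, 4.86, 5.93, 5.33 and 4.94, close to the values after dexamethasone alone. It differed from saline by 1.21 (SE 0.38, adjusted p = 0.18) and from arsenite alone by 1.03 (SE 0.38, adjusted p = 0.302). Against arsenite alone, as against dexamethasone alone, none of the 6 genes was called by limma, where 0.881% and 0.0% of probe sets were. In each of these comparisons 1 of 6 had an unadjusted p under 0.05, where 10.2% and 3.87% of probe sets had. Gsta2 had 4.14, 5.54, 5.05, 8.30 and 5.57, and replicate E stood near the level of chow-fed mice. It differed from saline by 2.23 (SE 0.82, adjusted p = 0.31).

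Replicate E of that group was also the highest of its group for Gsta4, at 8.68, for Gstt2, at 8.00, and for the shared probe set, at 10.55. It was not the highest for Gsta3, at 11.48, or for Gstt1, at 10.07. This array is one of the 12 low-score arrays. Gstt2 had 6.05, 6.03, 6.84, 8.00 and 6.08 in this group, all above the mice given dexamethasone alone, as for 0.473% of probe sets. That difference was 1.07 (SE 0.35) and was not called (adjusted p = 0.999). The interaction of dexamethasone and arsenite for Gstt2 was 1.46 (SE 0.49), with an unadjusted p of 0.00807 and an adjusted p of 1, and it was the 1 of the 6 genes with an unadjusted p under 0.05 there, against 3.46% of probe sets. None was called, as for 0.0% of probe sets.

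**Figure D4:**
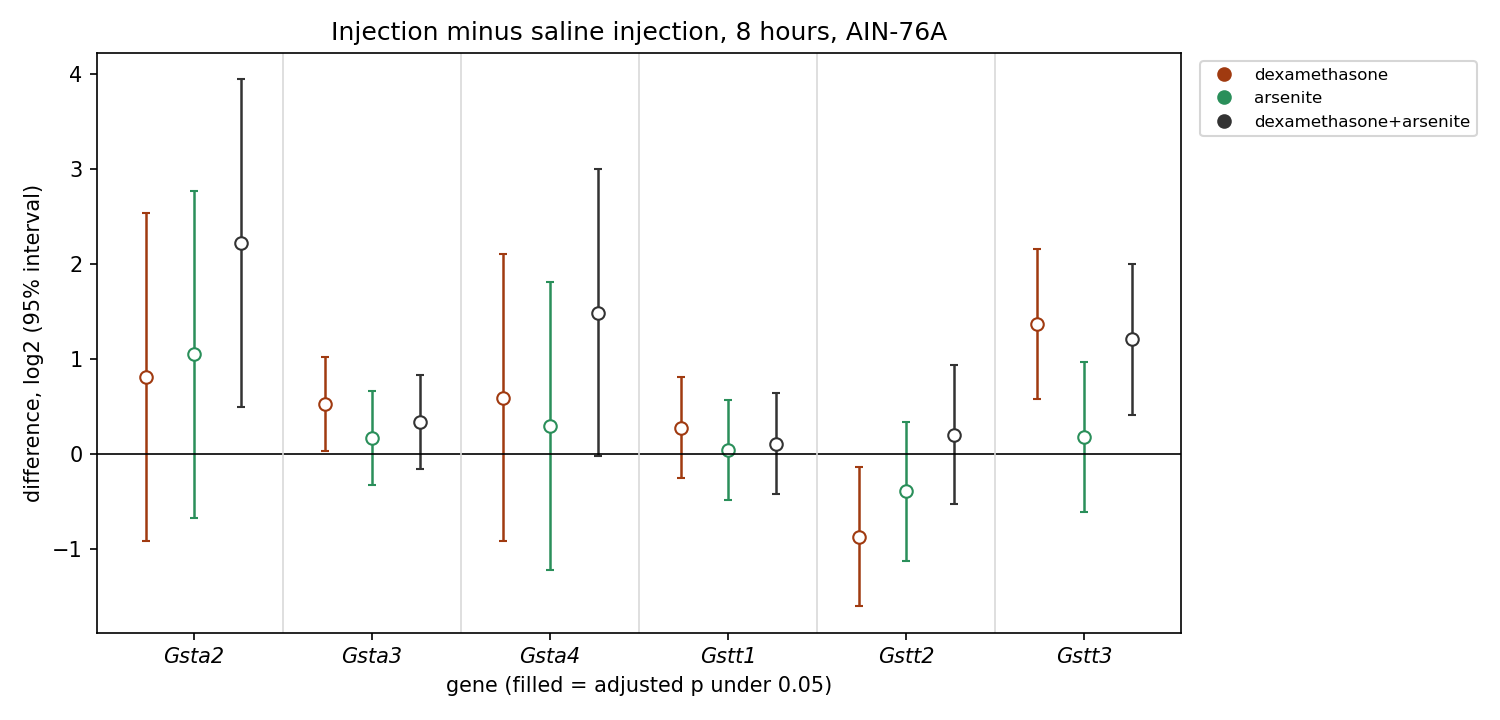
Difference in log2 value from saline-injected mice at 8 hours on AIN-76A (vertical axis) for each gene (horizontal axis) after dexamethasone, arsenite or both; bars are 95% intervals from limma and open points were not called. Gstt3 lies at 1.38 and 1.21 in the groups given dexamethasone and Gstt2 at -0.87 after dexamethasone alone.

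Other genes of glutathione metabolism were counted for dexamethasone against saline, where 0.984% of all probe sets were called higher and 0.753% lower. Of 16 genes for glutathione synthesis, recycling and breakdown, 0 were higher and 2 lower, with a median of -0.10 against -0.01 over all probe sets. These were both subunits of the rate-limiting ligase, Gclc (-1.74, SE 0.27, adjusted p = 0.00119) and Gclm (-0.64, adjusted p = 0.0461). The same subunits were lower with dexamethasone and arsenite together (Gclc -1.62, adjusted p = 0.00385, and Gclm -0.69, adjusted p = 0.043). Of the 20 other glutathione transferases, 1 was higher after dexamethasone, Gstm2 (1.55, adjusted p = 0.045), and 0 lower. The alcohol dehydrogenase genes Adh4 (-1.88, adjusted p = 7.38e-06) and Adh1 (-0.69) were the 2 of 16 carbonyl and peroxide genes that were lower.

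In the injected mice, the neutrophil list had mean levels from 2.95 to 6.98 after saline and from 2.29 to 2.49 after dexamethasone, without overlap, although none of its 6 genes was called. Its part in the differences of Gstt2 and Gstt3 was not tested. Saline-injected mice and control mice on AIN-76A followed different schedules, 8 hours after injection and 5 weeks on study. The injection therefore cannot be told apart from other differences between the 2 sets of mice. For the 6 genes these groups differed by -0.58 to 0.48, and none was called by limma, as for 0.0% of probe sets, with 0 of 6 at an unadjusted p under 0.05, against 4.42% of probe sets.

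Within groups, the 6 genes varied together from mouse to mouse. Over the deviations of 59 arrays from their group means, the 15 pairs had Pearson correlations from 0.31 to 0.84, with a median of 0.62. Arrays share hybridisation and RNA quality, so these correlations are given as a description. The highest was 0.84 for Gsta2 with Gsta4, and the lowest 0.31 for Gsta3 with Gstt2. Without the 12 low-score arrays, the range was 0.36 to 0.87 over 47 arrays.

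Among 3818 brighter genes, the nearest in pattern to each member were named by the highest Pearson correlation. Over the 12 group means, which share the diet step, Gsta2 was nearest to Aox1 (0.97), Gsta4 to Gsto1 (0.98), Gsta3 to Plpbp (0.95), Gstt1 to Hsd11b1 (0.98), Gstt2 to Entpd5 (0.97) and Gstt3 to Mccc1 (0.98). Over the 59 deviations, in which group means play no part, Gsta2 was nearest to Etnppl (0.84), Gsta3 to the carboxylesterase gene Ces1d (0.87), Gsta4 to the carboxylesterase gene Ces1g (0.89), Gstt1 to Gstm1 (0.83) and Gstt2 to Decr1 (0.77). Gstt3 was nearest to Ddt (0.75), the gene that adjoins it on chromosome 10. Ddt differed between the diets by 0.38 in the averaged contrast (SE 0.05, adjusted p = 8.57e-06) and was not called after dexamethasone (0.24, adjusted p = 0.579).

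The genes with the lowest correlations, looked for after the data were seen, included acute-phase and complement genes. Serpina3n had -0.81 with Gsta2, -0.81 with Gsta3 and -0.86 with Gsta4 over the 59 deviations. Orm1, which encodes the acute-phase protein orosomucoid, had -0.81 with Gsta2. The complement gene C2 was lowest for Gstt2 (-0.65), and Saa3, a serum amyloid A gene, for Gstt3 (-0.70). For Gsta3 the lowest was Serpina10 (-0.81), and for Gstt1 it was Rrbp1 (-0.79). Other genes, such as Flot1, Rpn1 and Fabp5, were also among the lowest of some members. In control mice on AIN-76A, Serpina3n had 8.83, 11.56, 9.09, 11.08 and 9.82, and in those on LRD-5001 8.86, 8.70, 8.36, 8.82 and 8.62. Replicates C and E, highest for Serpina3n on AIN-76A, were the 2 lowest for Gsta2 and Gsta4 there, at 2.65 and 3.47 for Gsta2 and at 4.16 and 5.42 for Gsta4. The array of this replicate C is one of the 12 low-score arrays.

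**Figure D5:**
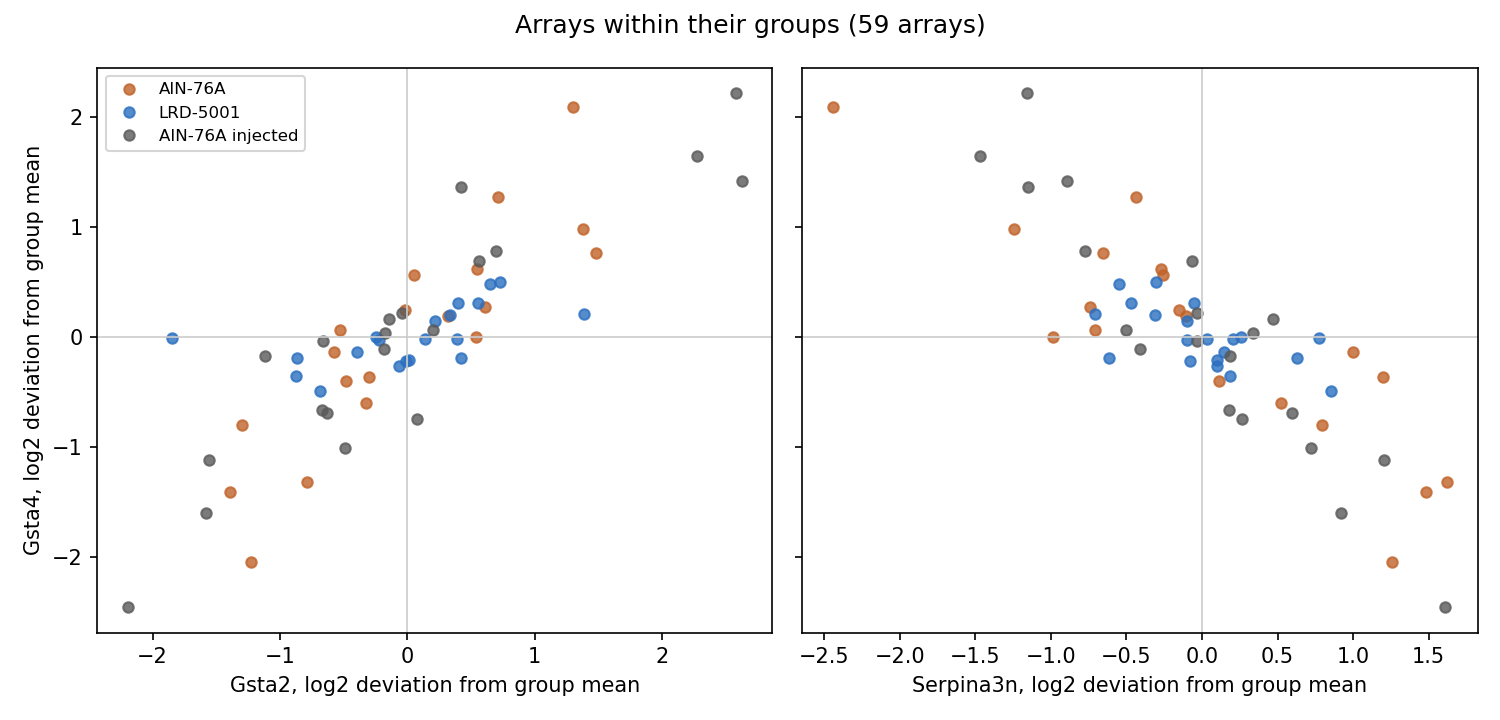
Deviation of Gsta4 from its group mean (vertical axis, log2) against that of Gsta2 (left) and of the acute-phase gene Serpina3n (right). Each of 59 arrays is 1 point, coloured by diet and by whether the mouse was injected. Gsta4 rises with Gsta2 (Pearson 0.84) and falls with Serpina3n (Pearson -0.86), and the LRD-5001 points lie in the narrowest range of Gsta4.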

How the data were processed

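Liver RNA of 59 samples in 12 groups was measured on 1-colour expression arrays. The deposited values are log2 expression values per probe set made by RMA (robust multi-array averaging), as the submitters' processing notes name it. No version of it is given in the sources used here. RMA draws dim probe sets together, so differences of dim genes can be understated. No further filter or normalization was applied.

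Groups came from the sample titles. Of the probe sets, 64 controls were left out and 45037 tested. Symbols came from the platform annotation (34945 probe sets with 1 symbol, 932 with several), and all 6 genes were found in the RefSeq table of GRCm38.p6. With limma 3.58.1 (R 4.3.3), a group-means model took the 39 arrays of the 5-week groups and another the 20 injected arrays. Saline against control used all 59. P-values of 25 comparisons were adjusted by Benjamini-Hochberg over all probe sets of a comparison, with a threshold of 0.05. Each fit shares 1 spread per probe set among all its groups, and precision is limited by how many arrays a group has. The p-values reflect only how far samples of a group lie apart. The script was tested on simulated data.

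The 6 genes and the lists of 6 pathways and 13 cell types were chosen with earlier results of these data known. Named genes of the lists are up to 4 called genes with the smallest p for the averaged diet contrast and the injections; genes named beside them were chosen after their values were seen. Likeness was taken over genes with a mean of at least 6. Promoter windows were aligned locally with Biopython 1.88. The labels do not say whether replicate letters pair the samples, and the reported fits did not use the letters. Same-letter deviations correlated between -0.68 and 0.72, with a median of 0.0022 against -0.0084 for other letters. Of 267 same-letter pairs, 92 exceeded 0.1. This does not settle the pairing, and counts with the letters as a block are given in the closing section. Alternatives were quantile normalization, a filter at a mean of 4, a variance trend, 1 fit of all arrays, a fit of the compared groups alone, the mean of a gene's probe sets, the letters or the 12 low arrays as a block, leaving those out, and leaving out each array.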

Additional observations from a re-analysis of the deposited data

Results flagged for a closer look

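In 72 sets of 4 or 5 arrays, 1 per gene and group, an array far from the rest of its group was looked for with Dixon's criterion, which chance alone meets in about 1 in 20 groups. It was met 3 times. Gsta3 was at 10.84 in replicate A of the group given 10 ppb in food on AIN-76A, where the other mice ran from 11.50 to 11.61. In the same group Gstt2 was at 5.61 in replicate E, where the others ran from 6.47 to 6.80. Gstt3 was at 5.10 in replicate E of the group given 100 ppb in water on LRD-5001, where the others ran from 5.95 to 6.22. None of these is among the 12 low-score arrays.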

How the results depend on the processing

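The averaged diet count of 5 of 6 genes and that of 4 in control mice were the same in all alternatives run. The counts of 3 at 10 ppb in water and in food lay between 2 and 4. In food Gstt3 made the count 4 with the filter on dim probe sets, without the 12 low arrays and without LRD-5001 replicate D. At 10 ppb in water Gsta4 made it 4 in the settings named for it in the diet comparison. At 100 ppb in water the diet count of 5 became 1 in the fit of the compared groups alone 3 without replicates B and C of the AIN-76A group, and 6 without the 12 low arrays; leaving out 1 array gave 3 to 6. For 100 against 10 ppb in water on AIN-76A the count of 1 became 2 with the filter on dim probe sets and with the 12 low arrays as a block, 3 without those arrays, and 0 in the fit of all 59 arrays, in the fit of the compared groups alone and without B and C; leaving out 1 array gave 0 to 3. For 100 ppb against control on AIN-76A the count of 0 became 1 without the 12 low arrays, and leaving out 1 array gave 0 to 2. For dexamethasone against saline the count of 0 became 1 with the filter, in the fit of all 59 arrays and in the fit of the compared groups alone, and leaving out 1 array gave 0 to 1; the gene was Gstt3, except Gstt2 (lower) in the fit of the compared groups. For both agents against saline it became 1, Gstt3, in the fit of all 59 arrays.

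With the replicate block the count was 0 for 100 against 10 ppb on AIN-76A, and 1 (Gstt3) each for dexamethasone against saline, both agents against saline and both agents against arsenite. Among the 42 differences with an unadjusted p under 0.05, signs turned only without B and C: Gstt1 between diets at 100 ppb (-0.17), Gsta3 (0.0385) and Gsta4 (0.44) for 100 ppb against control, Gstt1 for 100 against 10 ppb (0.20), and the Gsta3 interaction (-0.14). Among all 150 differences, 108 of 3252 alternative values had the opposite sign. Settings that leave out arrays also leave fewer samples to estimate the spread; other causes were not tested.

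Over the whole table, counts of called probe sets moved more than those of the 6 genes. Between the settings other than leaving out 1 array, they ran from 157 to 434 for the diets in control mice (256 as reported), 81 to 373 at 10 ppb in water (155), 38 to 2178 at 100 ppb (924), 83 to 192 in food (133) and 1416 to 3053 averaged (1919). They ran from 0 to 661 for 100 ppb against control on AIN-76A (4), 0 to 1109 for 100 against 10 ppb (321), 566 to 1371 for dexamethasone (782), 221 to 916 for both agents against saline (417), 119 to 846 against arsenite (397) and 0 to 16 against dexamethasone (0). The interaction of diet and 100 ppb ran from 0 to 26 (0).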
